A study of Mus musculus with 26 samples.

Results

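The 41 DNA replication genes described here are the genes that license replication origins, start and copy the strands, supply nucleotides, assemble chromatin behind the fork and control entry into S phase. They were listed by name, with a rule that uses no measured value, though the list was chosen with earlier results of these data known. Each matched 1 row of the 41442 in both RNA-seq count tables of the study. All 41 passed the filter on low counts in both tables, in which 17858 fetal and 16195 uterine genes were tested.

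The libraries came from sorted mesenchyme of the mouse reproductive tract. The fetal table held Gli1+ cells of the mesonephros, the embryonic tissue around the Wolffian and Müllerian ducts, in 4 groups of 3 libraries: females (XX) and males (XY) at E14.5 and at E16.5. The uterine table held Amhr2+ and Gli1+ cells of the neonatal uterus at E19.5, all female, in 2 groups of 3. The cells carried Gli1-CreER or Amhr2-Cre together with Rosa-Tomato, and the protocol, worded alike for every sample, names 1 mg tamoxifen per dam on E12.5 and on E13.5 for dams with embryos of either genotype, without saying sample by sample which dams were treated. CreER needs tamoxifen to act, so the Gli1 label marks cells by Gli1 expression around those days and their descendants, whereas Amhr2-Cre acts whenever Amhr2, the receptor of anti-Müllerian hormone, is expressed. No group of unlabelled cells was among the libraries compared. The labels do not say whether replicates came from separate litters or animals, so the p-values measure the spread between these libraries. The comparisons asked how the genes differed between the ages, between the sexes, and between the 2 uterine populations.

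DNA is copied once per cell cycle. In G1 the origin recognition complex with Cdc6 and Cdt1 loads the Mcm2 to Mcm7 helicase onto origins, a step called licensing. At the start of S phase cyclin E kinase activity, Mcm10, Cdc45 and the GINS complex turn the loaded helicase on, and polymerases, the Pcna clamp and its Rfc loader follow the fork. E2F transcription factors switch many of these genes on together as cells pass from G1 into S, so their mRNAs are widely read as marks of proliferating cells. In bulk libraries such as these, fewer cycling cells and less mRNA per cycling cell cannot be told apart.

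Library totals were 23382983 to 64602477 counts in the fetal table and 28709191 to 37541045 in the uterine table, and the 41 genes together took 0.204% to 0.354% of them. Mesenchyme markers such as Col1a1 and Col3a1 were abundant in every group, with a sum over 8 genes of at least 26995 CPM (read counts scaled to library size, with the TMM factors of edgeR), while 8 epithelial markers summed to at most 73.7 CPM and 6 germ cell markers to at most 6.53 CPM. The 8 markers of gonad somatic cells summed to 46.0 CPM in the lowest E14.5 female library and to 122.9 CPM in the highest uterine Amhr2+ library. Foxl2 was the most-read of them in every group. Some libraries stood apart within their groups for the replication genes. E16.5 male replicate 3 was the highest of its group for 33 of the 41 genes, and E14.5 male replicate 1 the lowest of its group for 30. In the uterine table Amhr2+ replicate 3 was the highest of its group for 41 of 41, and Gli1+ replicate 2 the lowest of its group for 40. The results that rest on these libraries are given with and without them. E14.5 female replicate 3 held a sum of 979 CPM over 8 erythroid markers.

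Chromatin accessibility was available as a single list of 71040 ATAC-seq peaks, with no column for any of the 8 fetal ATAC-seq libraries, so it says where chromatin was open but not in which group. Of the 41 genes, 41 had a peak within 1 kb of an annotated start site on mm10 (100%, Wilson interval 91.43% to 100%), against 89.13% of the 14577 tested fetal genes with a symbol in the annotation. RefSeq promoter windows of 300 bases, 250 before and 50 after a start site, were at hand for 33 of the 41 genes, and each of these 33 had a peak on a window. An E2F motif, searched as TTTCCCGC, TTTGGCGC, TTTCGCGC or TTTGCCGC on both strands, was found for 13 of the 33 (39.39%, Wilson interval 24.68% to 56.32%). The share was 4.511% of the 10996 tested fetal genes with a window. The 13 genes were Mcm3, Mcm5, Mcm6, Mcm7, Cdc6, Cdt1, Orc1, Gins3, Pold1, Rfc3, Lig1, E2f2 and Uhrf1, and 17 of their 19 matches lay under a peak. With only the 250 upstream bases searched the share was 24.24%. A CCAAT box (CCAAT, both strands), the core of the site bound by NF-Y, was found in 60.61% of the 33 (Wilson interval 43.68% to 75.32%). The share was 42.54% of the tested genes. The cell cycle homology region, a further short motif (TTTGAA or TTCGAA, both strands), was found in 24.24% of the 33 (Wilson interval 12.83% to 41.02%). Its share of the tested genes, 16.15%, lay inside that interval. The windows of the replication genes were also richer in G and C, with a median of 61.3% against 52.7% over all windows of the table. The content of the tested genes' windows was not computed, and the shares were not adjusted for G and C.

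Upstream sequence is shown for 5 genes whose mRNA levels carry the results below: 3 with upstream E2F matches and, for contrast, 2 without one there. Each run is the 190 bases before the start site, 5′ to 3′ on the gene's strand, from RefSeq on GRCm38.p6. They lie at chr1:128359706-128359895 (Mcm6, minus strand), chr8:75109319-75109508 (Mcm5, plus strand), chr17:56304123-56304312 (Uhrf1, plus strand), chr1:20820313-20820502 (Mcm3, minus strand) and chr2:5012792-5012981 (Mcm10, minus strand). In the first 3, capitals mark E2F matches. Mcm6 and Mcm5, subunits of the replicative helicase, each hold a pair of overlapping matches on opposite strands, and Mcm6 holds a further match nearer the start. Uhrf1, which brings the maintenance DNA methyltransferase to newly copied DNA, holds 1 match before one of its start sites. In the last 2, capitals mark CCAAT boxes (ATTGG on the opposite strand). The runs of Mcm6, Mcm5 and Uhrf1 hold CCAAT boxes too, which are left in lower case there. The E2F matches of Mcm3 lie after its start site and are not shown, and the window of Mcm10 held no match to the 4 forms.
Mcm6: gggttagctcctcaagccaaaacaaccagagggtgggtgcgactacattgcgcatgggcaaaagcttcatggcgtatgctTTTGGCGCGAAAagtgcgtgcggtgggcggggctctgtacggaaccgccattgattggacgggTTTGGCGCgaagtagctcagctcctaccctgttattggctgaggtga
Mcm5: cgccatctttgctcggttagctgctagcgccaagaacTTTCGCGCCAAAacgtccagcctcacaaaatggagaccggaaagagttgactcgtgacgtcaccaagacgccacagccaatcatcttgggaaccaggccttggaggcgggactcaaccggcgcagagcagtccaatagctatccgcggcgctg
Uhrf1: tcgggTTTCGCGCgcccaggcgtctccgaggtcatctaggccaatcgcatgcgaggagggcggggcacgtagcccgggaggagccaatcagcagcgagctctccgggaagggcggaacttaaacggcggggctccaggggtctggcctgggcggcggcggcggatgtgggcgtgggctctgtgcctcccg
Mcm3: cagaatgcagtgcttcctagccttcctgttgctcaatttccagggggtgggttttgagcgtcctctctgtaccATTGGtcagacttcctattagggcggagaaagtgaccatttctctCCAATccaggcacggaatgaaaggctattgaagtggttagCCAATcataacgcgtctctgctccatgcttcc
Mcm10: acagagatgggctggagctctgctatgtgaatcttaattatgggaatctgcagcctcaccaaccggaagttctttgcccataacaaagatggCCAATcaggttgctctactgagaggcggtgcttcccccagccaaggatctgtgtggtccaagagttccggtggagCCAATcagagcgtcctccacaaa
These are descriptions of letters in a window. A match is not a bound site, and the lack of one says only that these letters are absent there.

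Among the fetal groups the summed replication genes were lowest in E16.5 females. Their summed level at E14.5 was 3479 ± 57.0 CPM in females and 3259 ± 115 CPM in males, and at E16.5 it was 2593 ± 79.2 CPM in females and 3136 ± 240 CPM in males (mean ± SD, n = 3 each). The 3 E16.5 female libraries, at 2549, 2544 and 2684 CPM, lay below the other 9 fetal libraries, of which the lowest was an E16.5 male library at 2940 CPM. The E16.5 male libraries were the most scattered of the fetal groups, at 2940, 3066 and 3404 CPM. In the uterus the sums were 2882 ± 288 CPM in Amhr2+ and 2483 ± 354 CPM in Gli1+ cells, and the groups overlapped.

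**Figure D1:**
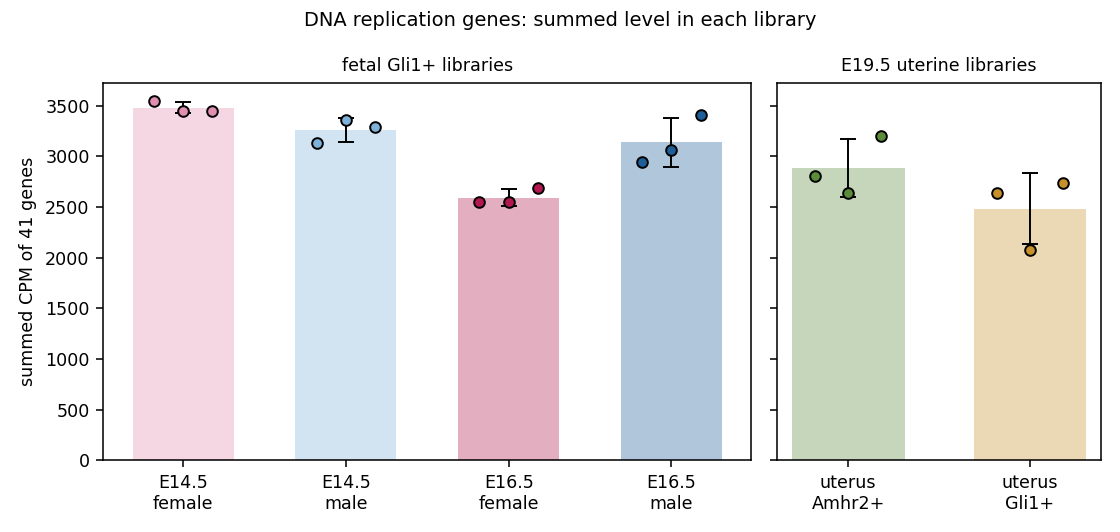
Summed CPM of the 41 replication genes in each library (points), with the group mean (bar) and SD (error bar, n = 3); fetal libraries on the left, uterine libraries on the right, from separately scaled tables. The E16.5 female points, between 2544 and 2684, lie below all other fetal points, and the 2 uterine groups overlap.

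Levels can be set side by side between genes once scaled to the length of the principal transcript. Pcna, the sliding clamp that holds polymerases on DNA, was the most abundant of the 41 per kb, with 97.1 CPM per kb in E14.5 females, and it was also the highest of the 41 in uterine Gli1+ cells. Mcm6, at 95.8 CPM per kb, and Mcm4, at 78.0 CPM per kb, followed in E14.5 females. Mcm10, at 9.17 CPM per kb, and Orc1, the largest origin recognition subunit, at 4.01 CPM per kb, were among the lowest in that group. Fen1, which trims Okazaki fragment flaps, was the lowest in the fetal table, at 1.35 CPM per kb in E14.5 females. Fen1 shares 84.2% of its exon bases with genes on the opposite strand, among them Tmem258. The kit of the fetal libraries does not mark strand, so fetal reads on these bases could not be assigned by strand. For the uterine libraries the use of strand in counting is not given in the sources used here. The level of Fen1 is therefore uncertain. The same holds to a lesser extent for Gins2, with 67.3% of exon bases shared, and Chaf1a, with 52.5%. In all, 14 of the 41 genes share exon bases with another gene.

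The comparison in which most of the 41 genes passed the test was the change with age in females. From E14.5 to E16.5, 31 of 41 genes fell (75.6%) and 0 rose in edgeR's quasi-likelihood test, where a gene passed with an adjusted p below 0.05. Of all genes tested 39.6% passed, 18.6% lower and 21% higher. All 41 log2 fold changes were negative, with a median of -0.43 against 0.00 over all genes, and for 37 of 41 (90.2%) every E16.5 library was below every E14.5 library, against 27.4% of all genes. No replication gene changed by 2-fold or more. The count ranged from 29 to 36 over the alternatives, and was 30 without E14.5 female replicate 3, the library with the erythroid markers.

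Of the licensing genes 9 of 10 fell. Cdc6, which loads the helicase with the origin recognition complex, read 45.5, 42.3 and 45.8 CPM at E14.5 and 22.5, 25.6 and 23.9 CPM at E16.5, which is -0.89 ± 0.10 on the log2 scale (with its SE; adjusted p = 7.22e-06). The groups did not overlap, and the lowest E14.5 library stood well above the highest E16.5 library. Mcm3, a helicase subunit, went from 180.1, 171 and 176 CPM to 105, 111 and 108 CPM (-0.71 ± 0.06, adjusted p = 3.01e-07). Orc1 went from 12.9, 13.0 and 10.4 CPM to 7.10, 6.75 and 8.44 CPM (-0.70 ± 0.17, adjusted p = 0.00505). Mcm4, the most-read licensing gene, went from 295, 278 and 267 CPM to 188, 181 and 217 CPM (-0.52 ± 0.10, adjusted p = 0.000939). Each of these 3 also had groups that did not overlap. Mcm2, Mcm5, Mcm6, Mcm7 and Cdt1 fell too, with log2 fold changes of -0.31 for Mcm7 to -0.62 for Mcm5. Orc6 did not pass (-0.20 ± 0.08, adjusted p = 0.0573).

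Of the helicase activators 4 of 6 fell. Mcm10, which helps the loaded helicase start, read 50.2, 41.5 and 42.2 CPM at E14.5 and 23.3, 25.1 and 30.6 CPM at E16.5 (-0.76 ± 0.19, adjusted p = 0.00858). Cdc45, an essential part of the running helicase, went from 36.9, 33.3 and 34.7 CPM to 21.7, 21.8 and 25.5 CPM (-0.60 ± 0.10, adjusted p = 0.00034). Both had no overlap between the ages. Among the GINS subunits Gins1 (-0.60) and Gins3 (-0.35) fell, the latter not past the threshold when 1 of 3 libraries was left out (E14.5 female replicate 3, E16.5 female replicates 1 and 2), and Gins2 (-0.19) and Gins4 (-0.18) did not pass.

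Of the polymerase and primase genes 4 of 5 fell. Pole, the catalytic subunit of the leading-strand polymerase, fell from 105, 101 and 104 CPM to 70.7, 67.3 and 68.3 CPM (-0.59 ± 0.07, adjusted p = 1.51e-05). The primase subunits Prim1 (-0.42) and Prim2 (-0.25) and the polymerase delta subunit Pold1 (-0.29) fell, while the polymerase alpha subunit Pola2 was at -0.06 ± 0.08 (adjusted p = 0.542). Of the clamp and its loader 3 of 6 fell: Rfc2 (-0.22), Rfc4 (-0.57) and Rfc5 (-0.36). Rfc1, the large loader subunit and the most-read gene of that role, read 169, 169 and 168 CPM at E14.5 and 165, 159.8 and 163 CPM at E16.5. Its E16.5 libraries were the lower ones without overlap, but the difference was small and did not pass (-0.05 ± 0.05, adjusted p = 0.427). Pcna was at -0.25 ± 0.11 (adjusted p = 0.0926) and Rfc3 at -0.12 ± 0.10 (adjusted p = 0.352).

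Lig1, the ligase that seals Okazaki fragments, fell from 167, 159.9 and 158 CPM to 130.1, 126 and 126 CPM (-0.35 ± 0.06, adjusted p = 0.000218). Fen1 fell by 0.89 on the log2 scale from a level of only 3.20 ± 0.35 CPM (SD, n = 3). Of the nucleotide supply genes, both subunits of ribonucleotide reductase and thymidylate synthase fell. Rrm1, the large reductase subunit, went from 208, 197 and 196 CPM to 148, 144 and 161 CPM (-0.41 ± 0.07, adjusted p = 0.000187). Rrm2, the subunit that limits the enzyme in S phase, was at -0.64 ± 0.09, Tyms at -0.29 ± 0.06, and Dut, a dUTPase, did not pass (-0.16 ± 0.07, adjusted p = 0.0786).

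All 3 chromatin genes fell: Uhrf1, from 162, 155 and 159 CPM to 112, 108 and 118 CPM (-0.49 ± 0.08, adjusted p = 0.00011), and the chromatin assembly factor subunits Chaf1a (-0.45) and Chaf1b (-0.54). Of the G1/S regulators, E2f1, an activating E2F, read 70.2, 69.6 and 69.0 CPM at E14.5 and 54.8, 54.8 and 50.4 CPM at E16.5 (-0.38 ± 0.07, adjusted p = 0.000425). Its 2 groups were tight and well apart. E2f2 (-0.59 ± 0.15) and Ccne2, a cyclin E (-0.54 ± 0.16), fell too, though Ccne2 did not pass without E14.5 female replicate 1 or without E16.5 female replicate 2. Ccne1 (-0.19 ± 0.08) did not pass, nor did E2f8 (-0.50 ± 0.22, adjusted p = 0.102), a repressing E2F whose E14.5 libraries were scattered.

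**Figure D2:**
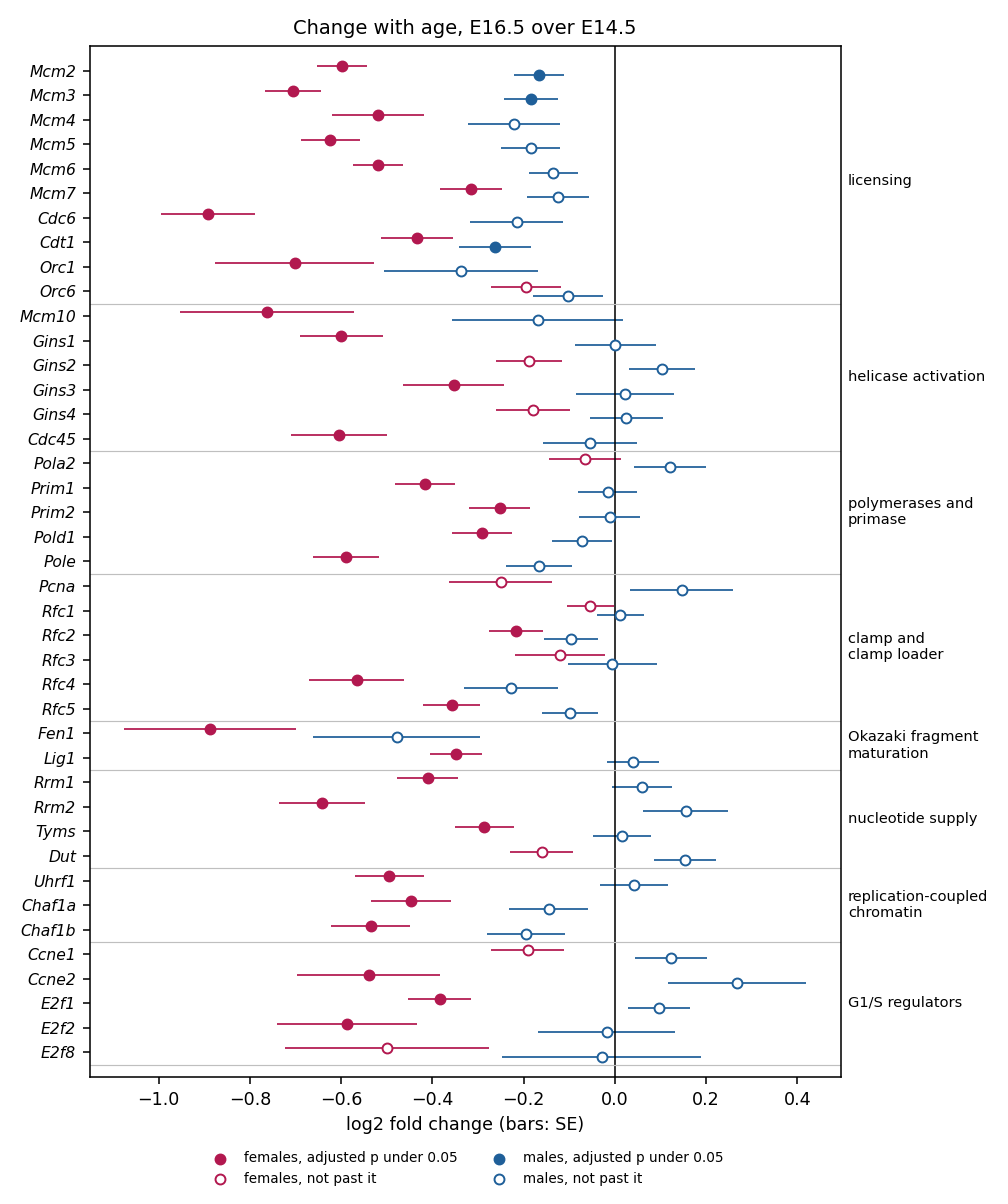
Log2 fold change from E14.5 to E16.5 for each of the 41 genes, by role, in females (red) and males (blue), with SE bars; filled points passed an adjusted p of 0.05. The female points are all left of 0, down to -0.89 for Cdc6 and Fen1, and the male points lie on both sides of 0.

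In males few of the genes passed over the same interval. By the edgeR test 3 of 41 fell (7.32%) and 0 rose, against 10.2% of all genes tested that fell and 13.1% that rose (23.3% in all), so the share was no higher than the background. The median log2 fold change was -0.03 against -0.01 over all genes, with 16 positive and 25 negative. The genes that passed were all licensing genes. Cdt1 read 56.0, 70.5 and 65.4 CPM at E14.5 and 51.9, 52.3 and 55.8 CPM at E16.5 (-0.26 ± 0.08, adjusted p = 0.0234). Mcm3 went from 146, 158 and 149.9 CPM to 130.2, 126 and 143 CPM (-0.18 ± 0.06, adjusted p = 0.0372). Mcm2 went from 153, 151 and 162 CPM to 132, 142 and 142 CPM (-0.17 ± 0.05, adjusted p = 0.0399). In each the E16.5 libraries were the lower ones without overlap.

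The male result depended on single libraries. Without E16.5 male replicate 3, the library with the highest levels of its group, 8 genes fell: Mcm3, Mcm4, Mcm5, Cdc6, Cdt1, Orc1, Pole and Chaf1b. Without E16.5 male replicate 1, 3 genes passed in the other direction, Pcna, Rrm2 and Ccne2, and none of the former 3 did. The count was 0 without E14.5 male replicate 3 or without E16.5 male replicate 2, and 0 when only the 6 male libraries were fitted.

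The sexes differed in the set at E16.5. By the edgeR test 24 of 41 genes (58.5%) were lower in females than in males, against 14.1% of all genes tested, with 13.2% higher (27.3% in all). All 41 log2 fold changes were negative (Mcm7 turned positive without E16.5 male replicate 3 and Pold1 without E16.5 male replicate 1), with a median of -0.28 against 0.01 over all genes, and for 26 of 41 (63.4%) every female library was below every male library, against 18.5% of all genes. This comparison shares the E16.5 female libraries with the change with age in females, so the 2 results are not independent. The count was 18 to 28 when 1 library was left out, 19 of these without E16.5 male replicate 3. Same-numbered E16.5 libraries of the sexes deviated together, and with the replicate number as a block 29 genes passed: the 24 and also Mcm4 (adjusted p = 0.0214), Mcm10 (0.0156), Pola2 (0.0363), Rfc3 (0.0253) and E2f2 (0.0142).

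Among the genes that passed, Ccne2 and Rrm2 had the largest differences between the sexes at E16.5. Ccne2, which activates the kinase Cdk2 at the G1/S transition, read 16.8, 14.2 and 19.8 CPM in females and 25.3, 32.3 and 38.7 CPM in males (-0.93 ± 0.15, adjusted p = 0.000517). Rrm2 read 61.8, 60.2 and 70.1 CPM against 85.3, 95.1 and 116 CPM (-0.63 ± 0.09, adjusted p = 0.000114). In both genes every male library was above every female one, and the male libraries spanned a wider range. All 4 nucleotide supply genes were lower in females, with Rrm1 at 148, 144 and 161 CPM against 181, 194 and 212 CPM (-0.38 ± 0.07, adjusted p = 0.000514), Tyms at -0.34 and Dut at -0.22. Of the other G1/S regulators Ccne1 (-0.41 ± 0.08) and E2f1 were lower in females. E2f1 read 54.8, 54.8 and 50.4 CPM in females and 73.5, 78.9 and 70.6 CPM in males (-0.48 ± 0.07, adjusted p = 7e-05). E2f1 differed from most of the set in that male replicate 3 was its lowest male library.

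Among licensing genes 6 of 10 were lower in females: Cdc6, Mcm2, Mcm3, Mcm5, Mcm6 and Orc6. Cdc6 read 22.5, 25.6 and 23.9 CPM in females and 31.5, 32.7 and 41.7 CPM in males (-0.56 ± 0.10, adjusted p = 0.000709). Mcm4 did not pass, with male libraries at 192, 229 and 267 CPM against 188, 181 and 217 CPM (-0.23 ± 0.10, adjusted p = 0.103), and its groups overlapped. Cdt1 was at -0.03 ± 0.08 and Mcm7 at -0.04 ± 0.07, and the latter turned to 0.01 without E16.5 male replicate 3. Of the helicase activators Cdc45, Gins1, Gins2 and Gins3 were lower in females. Cdc45 read 21.7, 21.8 and 25.5 CPM against 31.1, 29.2 and 38.7 CPM (-0.52 ± 0.10, adjusted p = 0.00139). Mcm10 overlapped, since its male libraries ran from 25.8 to 45.6 CPM (-0.40 ± 0.19, adjusted p = 0.149).

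Of the polymerase and primase genes 3 of 5 were lower in females. Pole was lower in females (70.7, 67.3 and 68.3 CPM against 73.9, 85.5 and 91.4 CPM; -0.28 ± 0.07, adjusted p = 0.00888), as were Prim1 (-0.31) and Prim2 (-0.19). Lig1 was lower as well, at 130.1, 126 and 126 CPM against 154, 145 and 156 CPM (-0.25 ± 0.06, adjusted p = 0.00349). Of the clamp and its loader only Pcna passed among the 6 (-0.33 ± 0.11, adjusted p = 0.0426), its groups overlapped, and it failed in 6 of the 12 alternatives. Rfc1 read 165, 159.8 and 163 CPM against 169, 179 and 175 CPM (-0.10 ± 0.05, adjusted p = 0.16). Uhrf1 read 112, 108 and 118 CPM against 126, 139 and 157 CPM (-0.32 ± 0.08, adjusted p = 0.00457), Chaf1a was at -0.25 ± 0.09 and Chaf1b did not pass (-0.14 ± 0.09). Prim2, Orc6, Chaf1a, Dut and Gins2 each lost the threshold in 3 to 6 of the 12 alternatives.

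**Figure D3:**
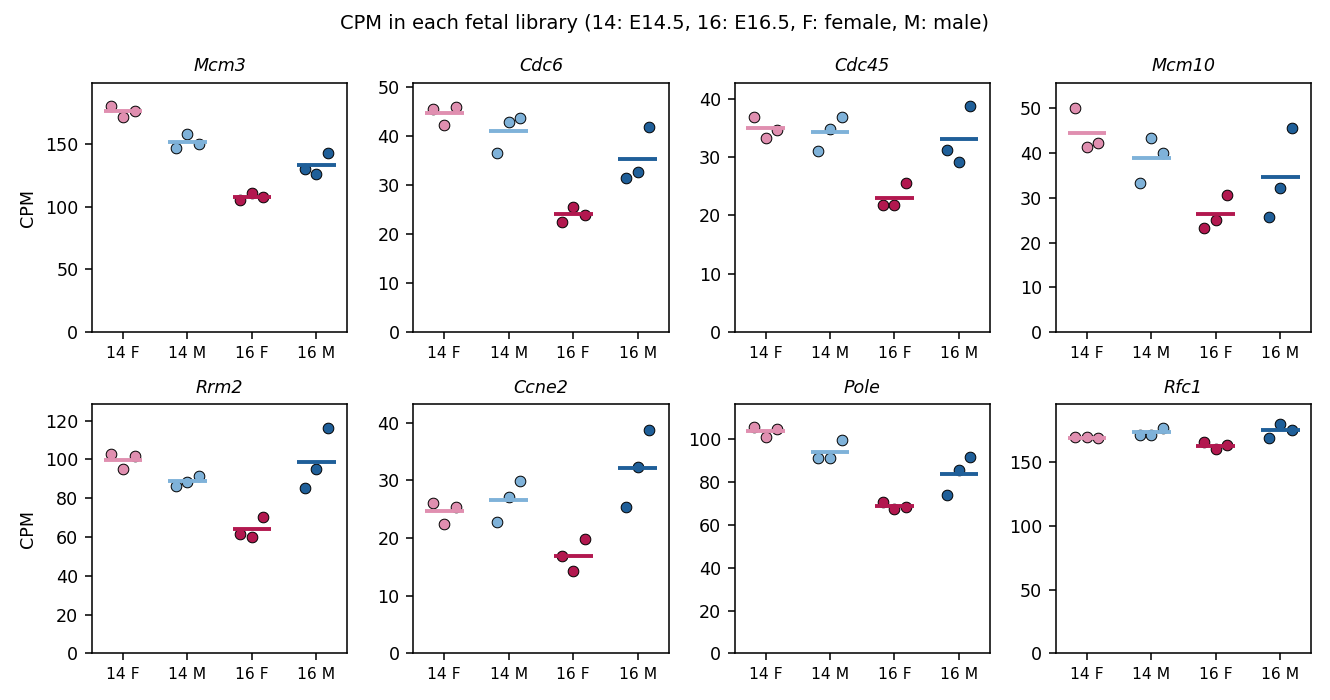
CPM in each fetal library (points) and the group mean (line) for 8 of the replication genes, each panel from 0; columns are E14.5 females, E14.5 males, E16.5 females and E16.5 males (n = 3 each). Except for Rfc1 the E16.5 female group has the lowest mean by a visible margin, and in most panels 1 E16.5 male library (replicate 3) stands above the other 2.

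At E14.5 the sexes differed little, and the small differences leaned the other way. Only Mcm3 passed of the 41 (2.44%). Of all genes tested 6.28% passed, 2.59% higher and 3.69% lower in females. It read 180.1, 171 and 176 CPM in females and 146, 158 and 149.9 CPM in males (0.22 ± 0.06, adjusted p = 0.0436), with no overlap. The call was lost in 9 of 12 alternatives, each of the 6 left-out libraries among them. The median log2 fold change was 0.09 against -0.01 over all genes, with 32 positive and 9 negative. In 14 of 41 genes (34.1%) every female library was above every male one, against 12.3% of all genes. These were Mcm2, Mcm3, Mcm5, Mcm6, Mcm7, Pold1, Pole, Rfc5, Lig1, Rrm1, Rrm2, E2f2, Uhrf1 and Chaf1b. The lowest male library for most genes was E14.5 male replicate 1, and without it the median was 0.05. That library was the highest male one for 5 genes. For Rfc4 it read 31.3 CPM against 22.1 and 23.4 CPM in the other male libraries, and Rfc4 shares exon bases with Eif4a2.

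**Figure D4:**
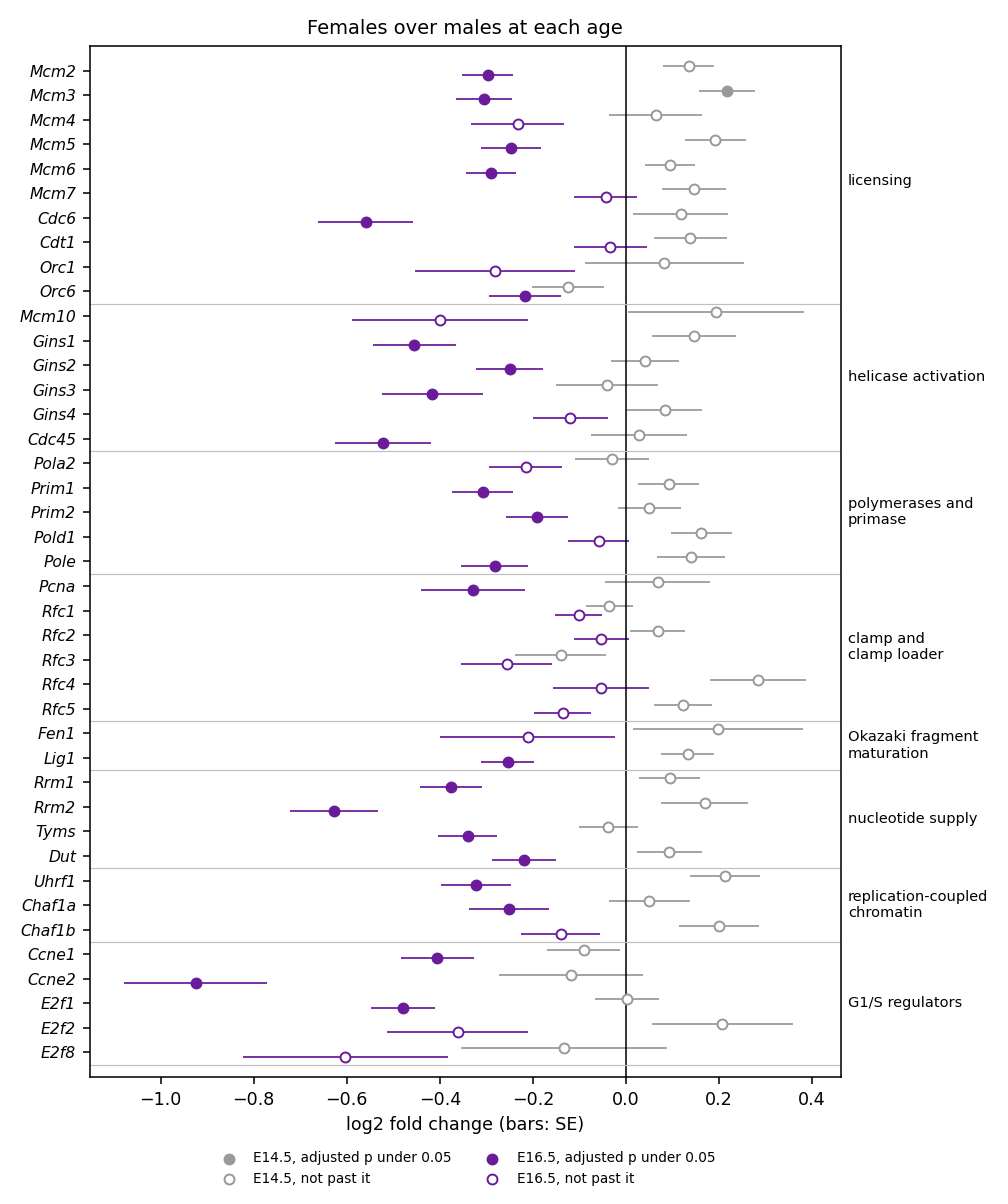
Log2 fold change of females over males for each of the 41 genes, by role, at E14.5 (grey) and E16.5 (purple), with SE bars; filled points passed an adjusted p of 0.05. The purple points all lie left of 0, to -0.93 for Ccne2, and the grey points scatter around 0 with 32 of 41 to its right.

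The difference between the sexes itself changed between the ages. The interaction term, which is the log2 sex difference at E16.5 minus that at E14.5 and equally the age change in females minus that in males, passed for 16 of 41 genes (39.0%), all in the negative direction. Of all genes tested 5.36% passed in that direction and 4.66% in the other (10% in all). All 41 estimates were negative, with a median of -0.38 against 0.02 over all genes. The median was -0.29 and the count 15 without E16.5 male replicate 3. Ccne2 (-0.81 ± 0.22, adjusted p = 0.0308), Rrm2 (-0.80 ± 0.13, adjusted p = 0.000899), Cdc6 (-0.68 ± 0.14, adjusted p = 0.00589) and Gins1 (-0.60 ± 0.13, adjusted p = 0.00572) had the largest terms. At E14.5 Gins1 read 20.2, 18.7 and 17.2 CPM in females against 17.2, 17.1 and 16.51 CPM in males. At E16.5 it read 12.4, 11.8 and 12.8 CPM in females against 17.2, 15.2 and 18.4 CPM in males. The E16.5 female libraries stood below the other 9, whose 3 groups lay between 15.2 and 20.2 CPM. Ccne2 did not pass in 8 of the 18 alternatives, Tyms in 12 and Cdc45 in 4.

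By role, 5 of 10 licensing genes (Cdc6, Mcm2, Mcm3, Mcm5 and Mcm6), 2 of 6 helicase activators (Gins1 and Cdc45), 3 of 4 nucleotide supply genes (Rrm1, Rrm2 and Tyms) and 2 of 5 polymerase and primase genes (Pole and Prim1) passed the interaction, together with Lig1, Uhrf1, Ccne2 and E2f1. In the clamp and its loader the estimates ran from -0.07 for Rfc1 to -0.40 for Pcna and none of the 6 passed. In a fit that was not planned, with the replicate block within E16.5 alone, 22 genes passed: the 16 with Mcm10, Pcna, Dut, Ccne1, E2f2 and Chaf1b. The pairing by number at E16.5 was read from these same counts and is uncertain, so the higher count is no independent support.

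A list of 25 mitosis genes was counted in the same fits. At E16.5, 14.1% of all genes tested were lower in females and 13.2% higher. Of the 25 mitosis genes 19 were lower and 1 was higher, with a median of -0.40. Among them were Mki67, the proliferation marker (419 ± 27.3 CPM in females against 607 ± 119 CPM in males, SD, n = 3; log2 -0.53, adjusted p = 0.00233), and Bub1, a spindle checkpoint kinase (46.8 ± 6.24 against 69.6 ± 11.1 CPM, log2 -0.57, adjusted p = 0.0012). The count of 20 fell to 11 without E16.5 female replicate 1, to 10 without E16.5 female replicate 2 and to 12 without E16.5 male replicate 3. With age in females 15 of 25 fell and 1 rose, against 18.6% and 21% of all genes tested. Bub1 was at -0.83 ± 0.11 and Top2a, which untangles copied DNA, at -0.68 ± 0.13. The gene that went against the rest in both contrasts was Mad2l1, another spindle checkpoint gene, named here after its values were seen. It was higher in E16.5 females than in males (98.2 against 69.1 CPM, log2 0.51 ± 0.07, adjusted p = 2.65e-05) and rose with age in females. With age in males and between the sexes at E14.5 the edgeR count was 0 of 25, with 2 of 25 at an unadjusted p under 0.05 in either contrast, and the DESeq2 count was also 0. Of all genes tested 23.3% passed with age in males and 6.28% between the sexes at E14.5. The interaction passed for 8 of 25 downwards and 1 upwards, against 5.36% and 4.66% of all genes tested. It passed for 18 in all in the unplanned fit with the replicate block within E16.5, where the pairing is uncertain. The count of 9 without the block rested on single libraries: without E14.5 female replicate 1 it was 3, without E14.5 female replicate 3 it was 2, and without E14.5 male replicate 1 or 2 it was 5 or 3. Without E16.5 female replicate 1 or 2 it was 4 or 3, and without E16.5 male replicate 1 or 2 it was 15 or 5.

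The ratio of the summed replication genes to the summed mitosis genes at E14.5 was 1.10 ± 0.07 in females and 1.077 ± 0.024 in males, and at E16.5 1.11 ± 0.06 in females and 1.012 ± 0.094 in males (SD, n = 3). The lowest value, 0.913, was that of E16.5 male replicate 3. The fetal groups overlapped in this ratio.

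A list of 48 further replication genes was counted as well. With age in females 28 of 48 fell, against 18.6% of all genes tested, with a median of -0.32. Gmnn, which blocks relicensing by binding Cdt1, went from 22.9 ± 0.28 to 13.9 ± 1.082 CPM (-0.72 ± 0.10, adjusted p = 2.99e-05), and Atad5, which unloads Pcna, from 92.8 ± 6.05 to 54.2 ± 4.13 CPM (-0.77 ± 0.11, adjusted p = 0.000108). At E16.5 26 of 48 were lower in females, against 14.1% of all genes tested. Clspn (-0.57 ± 0.12), a mediator of the replication checkpoint, was among the 26. The 1 that was higher was Dctpp1 (0.25 ± 0.08), a nucleotide pyrophosphatase, named after its values were seen. In males with age 2 rose and 2 fell, against 13.1% and 10.2% of all genes tested. This count of 4 became 2 without E14.5 male replicate 1 or without E16.5 male replicate 2. The interaction passed for 16 of 48, all negative, against 5.36% of all genes tested in that direction. Dck, a salvage kinase, led at -0.66 ± 0.11. The interaction passed for 9 without E14.5 female replicate 1 and for 10 without E14.5 male replicate 3.

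Of 14 further E2F, pocket protein and related genes, 7 were lower in females at E16.5, against 14.1% of all genes tested. These included E2f7 (26.1 ± 2.37 against 43.4 ± 12.04 CPM, log2 -0.74 ± 0.17, adjusted p = 0.00622), a repressing E2F, and the pocket proteins Rbl1 (-0.41 ± 0.07) and Rbl2 (-0.67 ± 0.08, adjusted p = 8.01e-06). The count of 7 fell to 4 without E16.5 female replicate 1, without E16.5 female replicate 2 or without E16.5 male replicate 3. E2f3, an activating E2F, was higher in females at E14.5 (65.9 ± 2.44 against 51.3 ± 2.51 CPM, log2 0.36 ± 0.08, adjusted p = 0.00894) and fell with age in females (-0.75 ± 0.08) and in males (-0.27 ± 0.08).

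Markers of other cell types differed between the groups. The sum of 6 smooth muscle markers ran from 465 to 567 CPM in E16.5 females and from 1716 to 2893 CPM in E16.5 males, and from 302 to 326 CPM in E14.5 females. None of the 6 was at 0 in any of these groups, and 5 of 6 were lower in E16.5 females than in males. With age in females 4 of 6 smooth muscle markers passed, 3 of them higher. The 6 endothelial markers summed to 115 to 126 CPM in E14.5 females, 65.0 to 78.4 CPM in E16.5 females and 82.2 to 91.8 CPM in E16.5 males, and 4 of 6 fell with age in females. The 6 immune markers summed to 58.8 to 67.8 CPM in E14.5 females, 29.7 to 76.1 CPM in E16.5 females and 12.9 to 47.1 CPM in E16.5 males. Cd68 was the most-read of them in each group, with means of 57.4, 34.5 and 30.8 CPM in that order. While the mean of Cd68 was lower in the older females, 4 of 6 markers were higher in E16.5 females than in E14.5 females. Against E16.5 males 4 of 6 were higher too. None of these 12 markers was at 0. Of the gonad somatic markers 6 were tested, and 3 were lower and 0 higher in E16.5 females than in males. The 8 mesenchyme markers summed to 40906 to 42951 CPM in E14.5 females, 57771 to 67154 CPM in E16.5 females and 47965 to 59627 CPM in E16.5 males, a sum carried mostly by 3 collagens. Of the 8, 5 rose and 2 fell with age in females, and at E16.5 4 were higher and 2 lower in females, with Pdgfra at 646 CPM in E16.5 females, 1175 CPM in their male counterparts and 989 CPM in the younger females. Their part in the differences of the replication genes was not tested. Gli1 itself averaged 184 CPM (females) and 228 CPM (males) at E14.5, and 50.7 CPM (females) and 208 CPM (males) at E16.5. Among the fetal groups it was lowest in E16.5 females, as were the summed replication genes. At E14.5, however, it was lower in females, whose replication genes summed higher than those of males. In the uterus it averaged 10.5 CPM in Amhr2+ and 17.9 CPM in Gli1+ cells, and the replication sum was the higher in Amhr2+ cells. A link between the level of Gli1 and the replication genes was not tested.

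In the uterus the replication genes leaned towards the Amhr2+ cells, but few passed the test. By edgeR 4 of 41 were higher in Amhr2+ than in Gli1+ cells (9.76%), against 10.1% of all genes tested that were higher and 13.7% that were lower (23.9% in all), so in this fit the share was near the background. The count was 10 with scaling to library size alone, and 18 with a replicate block, although the uterine numbers did not pair the libraries. The median log2 fold change was 0.21 against -0.00 over all genes, with 38 of 41 positive. In 14 of 41 (34.1%) every Amhr2+ library was above every Gli1+ library, against 21.2% of all genes, and in 2 (E2f1 and Rfc3) every one was below, against 23.2%.

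The 4 genes came from 4 roles. Prim1, the primase subunit that makes the RNA primer, read 51.4, 52.8 and 54.6 CPM in Amhr2+ and 42.5, 35.9 and 43.8 CPM in Gli1+ cells (0.38 ± 0.08, adjusted p = 0.0141). Rrm1 read 203, 193 and 222 CPM against 173, 151 and 179 CPM (0.30 ± 0.08, adjusted p = 0.0341). Mcm10 read 27.7, 23.8 and 34.2 CPM against 20.5, 17.1 and 21.9 CPM (0.53 ± 0.15, adjusted p = 0.0329). All 3 had no overlap between the populations. E2f2, an activating E2F, read 17.8, 16.4 and 23.9 CPM against 12.1, 9.78 and 15.4 CPM (0.64 ± 0.19, adjusted p = 0.0457), also without overlap. Only Prim1 passed when Amhr2+ replicate 1, Amhr2+ replicate 3, Gli1+ replicate 1 or Gli1+ replicate 2 was left out. The median came to 0.12 if Amhr2+ replicate 3 was left out and to 0.11 if Gli1+ replicate 2 was, the libraries at the ends of the range for most genes.

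No licensing gene passed in the uterus. Mcm4 read 184, 175 and 213 CPM in Amhr2+ and 177, 130.0 and 200.5 CPM in Gli1+ cells (0.17 ± 0.15, adjusted p = 0.461), and Mcm3 read 126, 118 and 139 CPM against 125, 90.2 and 128 CPM. Lig1 overlapped as well, at 119, 107 and 130.4 CPM against 117, 96.6 and 119.6 CPM (0.09 ± 0.10). Pole (78.2, 71.5 and 94.9 CPM against 67.7, 57.6 and 68.5 CPM; 0.34 ± 0.11, adjusted p = 0.0644), Rfc1 (162, 155 and 167 CPM against 148, 129.9 and 146 CPM; 0.19 ± 0.07, adjusted p = 0.0713) and Uhrf1 (146, 132 and 179.9 CPM against 126, 89.2 and 129 CPM; 0.41 ± 0.16, adjusted p = 0.111) did not overlap but missed the threshold. E2f1 went the other way, at 37.5, 36.8 and 37.5 CPM against 42.0, 37.9 and 40.5 CPM (-0.11 ± 0.07, adjusted p = 0.282).

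**Figure D5:**
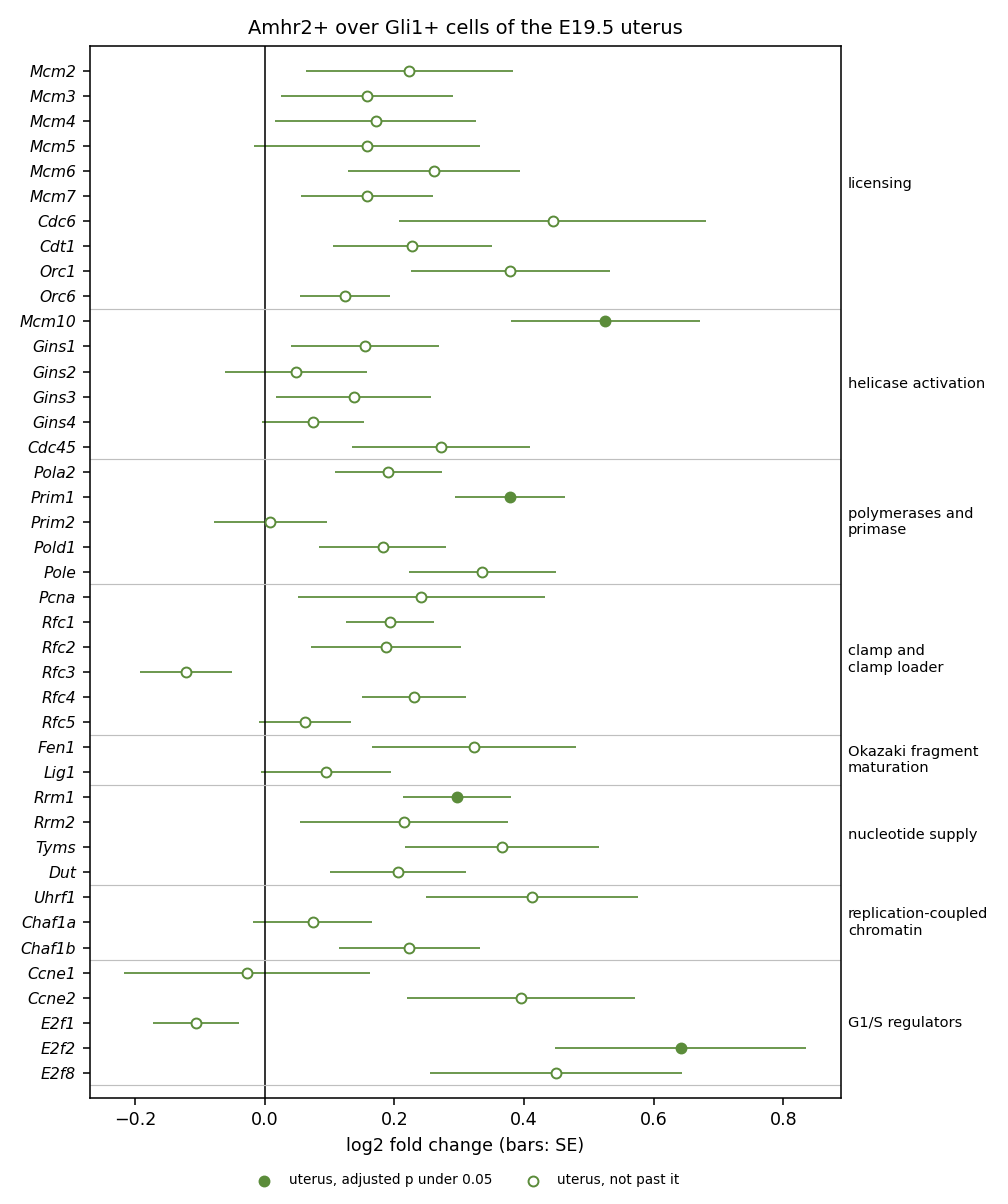
Log2 fold change of Amhr2+ over Gli1+ cells of the E19.5 uterus for each of the 41 genes, by role, with SE bars; filled points passed an adjusted p of 0.05. Most points lie right of 0, to 0.64 for E2f2, and the 4 filled points are Rrm1, Prim1, Mcm10 and E2f2.

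Of the 25 mitosis genes 15 were higher in uterine Amhr2+ cells, against 10.1% of all genes tested, with a median of 0.36. Kif11, a spindle motor (158 ± 26.3 against 108 ± 9.09 CPM, log2 0.55 ± 0.12, adjusted p = 0.0126), and Top2a (461 ± 77.1 against 323 ± 54.5 CPM, log2 0.51 ± 0.15, adjusted p = 0.0432) were among them. That count was 3 to 16 when 1 library was left out: 5 without Amhr2+ replicate 1, 6 without Amhr2+ replicate 3, 3 without Gli1+ replicate 1 and 7 without Gli1+ replicate 2. Of the 48 further replication genes 7 (14.6%) were higher in Amhr2+ cells, against 10.1% of all genes tested. The 7 included Mcm8 (0.60 ± 0.15) and Atad5 (0.48 ± 0.11). Their count was 1 to 9 when 1 library was left out (1 without Amhr2+ replicate 1, 2 without Amhr2+ replicate 3, 3 without Gli1+ replicate 1 and 4 without Gli1+ replicate 2). The ratio of replication to mitosis sums was 0.975 ± 0.009 in Amhr2+ and 1.06 ± 0.07 in Gli1+ cells (SD, n = 3), and whether the 2 lists differed from each other was not tested. Smooth muscle markers ran from 1122 to 1769 CPM in Amhr2+ and from 2121 to 2340 CPM in Gli1+ libraries, with 2 of 6 lower in Amhr2+ cells, and mesenchyme markers from 26995 to 28834 CPM and from 56046 to 63227 CPM, with 5 of 8 lower. Epithelial markers summed to 71.7 to 73.7 CPM in Amhr2+ and 31.9 to 43.4 CPM in Gli1+ libraries, and 4 of the 7 tested were higher in Amhr2+ cells. Endothelial markers summed to 24.0 to 29.8 CPM against 37.2 to 45.2 CPM, with 3 of 6 lower, and erythroid markers to 1.75 to 2.54 CPM against 7.84 to 8.67 CPM, with 3 of the 3 tested lower. Their part in these differences was not tested.

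Fen1 read 22.2 to 40.1 CPM in the uterine libraries, made with a stranded kit, and 1.52 to 3.58 CPM in the fetal libraries, made with a kit that does not mark strand. The tables were scaled separately and are not compared further.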

How the data were processed

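RNA-seq was measured in 12 fetal and 6 uterine libraries. The deposited tables hold raw read counts per gene, whole numbers that the authors did not normalize. The submitters' processing notes name STAR 2.5, Subread 1.5.0-p1, featureCounts and mm10 among their tools and builds, without roles, and use of strand in counting is not given in the sources used here. The labels' protocols give a non-stranded TruSeq kit for fetal and a stranded one for uterine libraries, so each table was analysed by itself. The deposited peak list, with start and end positions only, is 1 list for all ATAC-seq libraries. MACS2 2.1.1 is named per the submitters' processing notes.

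Counts were tested with edgeR 4.0.16 in R 4.3.3: TMM scaling, filterByExpr, robust quasi-likelihood fit and Benjamini-Hochberg adjustment over all genes tested, at an adjusted p under 0.05. The 12 fetal libraries formed 1 fit of 4 group means. The scripts were tested on simulated data. CPM used the TMM-scaled library size, and SE is the size of the log2 fold change over the square root of F. Total counts per library ranged from 23382983 to 64602477, with 3 counts at 0.0485 to 0.126 CPM. Wilson intervals are at 95% and cover counting error only.

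Same-numbered libraries correlated in their deviations from group means at E16.5 between the sexes (r across genes 0.28, 0.11 and 0.40), which paired them by the rule of 3 pairs over 0.1, and the block is given where it changes a call. The pairing is uncertain, since E16.5 female replicate 2 correlated nearly as well with male replicate 1 (0.108) as with male replicate 2 (0.115). Alternatives were other scalings, no filter, DESeq2 1.42.0, the block, fewer libraries and leaving out each library. No 2 libraries of a group differed by less than sampling noise.

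The genes and lists were chosen with earlier results of these data known. Values in every library are given for the most-read gene of each role and, per contrast, the 4 genes that passed with the largest log2 fold change and a mean of at least 5 CPM, with up to 4 genes of each other list by the same rule. Further members are named with their values.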

Additional observations from a re-analysis of the deposited data

Results flagged for a closer look

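The sex by age interaction itself was tested, and 16 of 41 replication genes passed it, so the sex difference of these genes at E16.5 differed from that at E14.5. Of all genes tested 10% passed it, 5.36% in the negative direction. By edgeR's quasi-likelihood test, adjusted over all genes, the terms of the G1/S and nucleotide supply genes were -0.81 for Ccne2, -0.48 for E2f1, -0.80 for Rrm2, -0.47 for Rrm1 and -0.30 for Tyms. Those of the licensing genes were -0.68 for Cdc6, -0.52 for Mcm3, -0.44 for Mcm5, -0.43 for Mcm2 and -0.38 for Mcm6. The remaining terms were -0.60 for Gins1, -0.55 for Cdc45, -0.42 for Pole, -0.40 for Prim1, -0.39 for Lig1 and -0.54 for Uhrf1. Of the 18 alternatives, Tyms did not pass in 12, Ccne2 in 8 and Cdc45 in 4. Each value is the log2 female over male difference at E16.5 minus that at E14.5, with 3 libraries per group.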

How the results depend on the processing

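Counts of replication genes that passed at E16.5 between the sexes (18 to 29), with age in females (29 to 36) and in the interaction (13 to 23) stayed within 1.5 times the reported ones under every alternative run. At E14.5 the count was 0 under library size scaling (no TMM factors), 0 without the filter, 2 with DESeq2, 0 with the replicate block, 3 with only the 6 libraries compared, and 0 to 1 when 1 library was left out. With age in males it was 10 under library size scaling, 1 without the filter, 0 with only the 6 libraries compared, and 0 to 8 when 1 library was left out. In the uterus it was 10 under library size scaling, 18 with the replicate block, and 1 to 5 when 1 library was left out. The uterine numbers did not pair the libraries by the rule (r across genes 0.0018, 0.22 and 0.24), and not every library there correlated best with its own number. The replicate block changed no count with age, in females (31) or males (3). The cause of these differences was not tested. The median with age in females was -0.48 under library size scaling. The median of the interaction ran from -0.40 to -0.29 when 1 library was left out. The E2F motif share was 24.24% over the upstream bases alone. Single genes were followed for the whole set at E16.5 between the sexes, with age in females and in the interaction. At E14.5, with age in males and in the uterus only genes that passed and the most-read gene of each role were followed. Sign changes of the other replication genes there were not looked for. Among the genes followed, signs turned only for genes that did not pass. When 1 library was left out, the sex difference of E2f1 at E14.5 ran from -0.0414 to 0.0596, and at E16.5 that of Mcm7 from -0.0800 to 0.0144 and of Pold1 from -0.0986 to 0.00599. The age change in males ran from -0.41 to 0.00208 for Mcm10, from -0.00805 to 0.0351 for Rfc1 and from -0.0310 to 0.117 for Uhrf1. Under library size scaling E2f1 at E14.5 was -0.0174, and the male age change was -0.0439 for Rfc1, -0.0161 for Lig1 and -0.0171 for Uhrf1. In all, 215 of the single-gene results under alternatives lost the threshold and 74 passed it anew.

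With 3 libraries per group the precision is set by their spread rather than by depth. Where the labels do not give litters, p-values cover these libraries only. The fetal kit does not mark strand, and the strand setting of the uterine counts is not known. This leaves Fen1, Gins2, Chaf1a and other genes that share exon bases uncertain. The peak list has no sample columns, so accessibility was not compared between groups. Promoter windows covered 33 of 41 genes.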

Other observations

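Cyclin D and CDK inhibitor genes, which regulate the kinases that drive entry into S phase, were counted in the same fits. Of 12 listed genes 10 were tested, and by edgeR's quasi-likelihood test 5 rose and 3 fell with age in females, while 4 rose and 0 fell with age in males. Of all genes tested 21% rose and 18.6% fell with age in females, and 13.1% rose and 10.2% fell in males. The male count of 4 became 2 without E14.5 male replicate 1, E14.5 male replicate 3 or E16.5 male replicate 3.

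Ccnd2, a D-type cyclin, read 800.6, 798 and 772 CPM in females and 645, 600.4 and 654 CPM in males at E14.5. At E16.5 it read 411, 438 and 421 CPM in females and 504, 654 and 635 CPM in males. The E16.5 female libraries lay below the other 9. Its fall with age in females was -0.90 ± 0.08 (SE, log2; adjusted p = 6.86e-07), the male change was -0.08 ± 0.08, and the interaction passed (-0.82 ± 0.12, adjusted p = 0.000273). Ccnd1 also had its lowest levels in E16.5 females, at 72.8, 76.8 and 74.5 CPM against 107, 112 and 103 CPM in E16.5 males (-0.52 ± 0.06).

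Cdkn1c, which encodes the CDK inhibitor p57, went the other way. In females it went from 244, 254 and 264 CPM to 421, 424 and 407 CPM (0.72 ± 0.06, adjusted p = 4.86e-07), against 325, 344 and 327 CPM and then 377, 338 and 326 CPM in males (0.06 ± 0.06). Its interaction was 0.65 ± 0.09 (adjusted p = 0.000201). Thus females had less Cdkn1c than males at E14.5 without overlap, and more at E16.5 without overlap.

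Cdkn2c, a CDK4 and CDK6 inhibitor, rose in both sexes. In males it went from 7.15, 10.7 and 9.56 CPM to 22.1, 24.4 and 29.95 CPM (1.47 ± 0.14, adjusted p = 1.46e-06), and in females from 7.55, 6.01 and 7.53 CPM to 13.2, 13.7 and 14.2 CPM (0.96 ± 0.15). The interaction did not pass for it (-0.50 ± 0.20, adjusted p = 0.145). At E16.5 it was lower in females than in males (-0.89 ± 0.14). In the uterus 4 of the 10 tested genes of the list were lower and 0 higher in Amhr2+ than in Gli1+ cells. Of all genes tested 13.7% were lower and 10.1% higher. The inhibitors among the 4 were Cdkn1c (497 against 695 CPM, -0.48 ± 0.06) and Cdkn2c (9.30 against 17.9 CPM, -0.94 ± 0.16). The others were the D-type cyclin Ccnd3 (247 against 375 CPM) and the kinase Cdk6 (92.9 against 115 CPM). Cdk6 lost the threshold in 5 of 11 alternatives.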
